A study of Mus musculus with 13 samples.

Results

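The SOCS family holds 8 genes in the mouse, Cish and Socs1 to Socs7, out of 21887 protein-coding genes in the reference annotation (GRCm38.p6, mm10), and all 8 were found by symbol. Called regions of STAT5A, LSD1 and HDAC3 with any part within 50 kb of the bounds of a gene were taken as near it. The family's windows held between 0 and 45 regions per list. The regions come from chromatin immunoprecipitation with sequencing (ChIP-seq) in Ba/F3, a mouse pro-B cell line that needs interleukin 3 (IL3) to grow and survive. All cells were kept in medium with 1 ng/mL IL3, and those without IL3 had then gone 6 h with none, while those with IL3 had gone 6 h with none and then received 10 ng/mL IL3 for 30 min. Each protein was measured with 1 antibody in 2 biological replicates per condition, which gave 12 replicate lists, and the authors also deposited 6 lists called on the pooled replicates of each group.

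SOCS proteins are feedback inhibitors of cytokine signalling. IL3 binding to its receptor activates the kinase JAK2, which phosphorylates STAT5, and STAT5 enters the nucleus, binds DNA and switches on genes that include members of the family. The SOCS proteins then bind phosphorylated receptors or kinases through an SH2 domain and, through the SOCS box, bring in a ubiquitin ligase. LSD1 is a histone demethylase and HDAC3 a histone deacetylase, and both are known mostly as parts of corepressor complexes.

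Promoter sequence from RefSeq (GRCm38.p6), running from 250 bases before to 50 bases after the transcription start, was at hand for 4 of the 8 genes. The windows of Cish, Socs1 and Socs3 are shown because these genes had the most STAT5A regions close by. Capitals mark each match to TTCNNNGAA, the letters of the STAT consensus, which read the same on both strands so that a single search covers both.
Cish, chr9:107296409-107296708, plus strand: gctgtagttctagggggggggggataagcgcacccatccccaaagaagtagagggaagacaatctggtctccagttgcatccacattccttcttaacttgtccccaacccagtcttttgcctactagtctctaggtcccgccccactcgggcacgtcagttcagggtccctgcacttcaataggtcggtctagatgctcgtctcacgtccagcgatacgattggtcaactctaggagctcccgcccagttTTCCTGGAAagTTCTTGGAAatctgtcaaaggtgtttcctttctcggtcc
Socs1, chr16:10785487-10785786, minus strand: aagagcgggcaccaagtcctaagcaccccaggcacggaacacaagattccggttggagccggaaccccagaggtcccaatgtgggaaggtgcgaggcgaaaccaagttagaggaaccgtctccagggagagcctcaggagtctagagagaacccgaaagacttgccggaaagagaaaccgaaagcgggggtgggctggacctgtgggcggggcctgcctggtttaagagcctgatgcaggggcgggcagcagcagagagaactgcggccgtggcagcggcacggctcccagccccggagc
Socs3, chr11:117969317-117969616, minus strand: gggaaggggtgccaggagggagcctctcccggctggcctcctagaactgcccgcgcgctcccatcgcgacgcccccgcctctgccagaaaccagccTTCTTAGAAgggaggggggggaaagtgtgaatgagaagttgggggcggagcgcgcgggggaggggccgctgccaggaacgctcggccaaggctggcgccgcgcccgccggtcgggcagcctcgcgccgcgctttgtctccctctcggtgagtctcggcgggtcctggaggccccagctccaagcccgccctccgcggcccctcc
The Cish window held 2 matches, TTCCTGGAA with its first base at the start site and TTCTTGGAA with its first base 11 bases further in. Of all 32817 promoter windows, 8.29% held at least 1 match and 0.457% held 2 or more. The first Cish match lay inside the STAT5A region of both replicates with IL3 and of replicate 1 without IL3, and the second lay inside the region of replicate 1 in both conditions. The Socs3 window held 1 match, TTCTTAGAA, with its first base 154 bases before the start site. That match lay in no STAT5A region of any list, and lay in the LSD1 regions of replicate 2 and of the pooled list with IL3. The windows of Socs1 and Socs4 held no match, which says only that these letters are not in those 300 bases. Among the 2612 windows that overlapped a pooled STAT5A region with IL3, 15.1% held a match, and among the 2283 that overlapped a pooled STAT5A region without IL3, 5.43% did. A match is a run of letters and was not tested as a binding site.

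The lists differ in length, and some libraries stood apart. The STAT5A lists held 354 and 4513 regions without IL3 (replicates 1 and 2) and 13574 and 6288 with IL3. The LSD1 lists held 1007 and 15786 without IL3, against 6479 and 11570 with IL3, and the HDAC3 lists held 1632 and 535 without IL3, against 683 and 265 with IL3. The LSD1 list of replicate 1 without IL3 has no score under 60.5, while the other LSD1 replicate lists reach down to between 12.4 and 16. The HDAC3 list of replicate 2 with IL3 holds a score of 76945, against a highest score of 473.8 in the other HDAC3 replicate lists. The labels and files give no read totals, so a region missing from a list was not detectable at that list's threshold, and is not shown to be unbound. The score is the authors' own value for each region whose definition neither labels nor files state, so ranks are given within a list (1 is the highest score, and ties share the smallest rank), and ranks from lists of different length show no change. None of the 207 regions found in all 6 pooled lists lay within 50 kb of a family member.

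STAT5A regions near the SOCS genes were more numerous with IL3 for 4 of the 8 members, Cish, Socs1, Socs3 and Socs5, in the sense that both replicates with IL3 had more than both replicates without. Over all protein-coding genes 18% showed this, and 0 members showed the opposite, against 0.0183% of all genes. With 2 libraries against 2, the two-sided exact permutation test cannot give a p below 0.333, which these 4 genes reached. None of the 24 differences per gene and protein therefore passes a threshold of 0.05, and every difference below is a count per list with its spread.

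**Figure D1:**
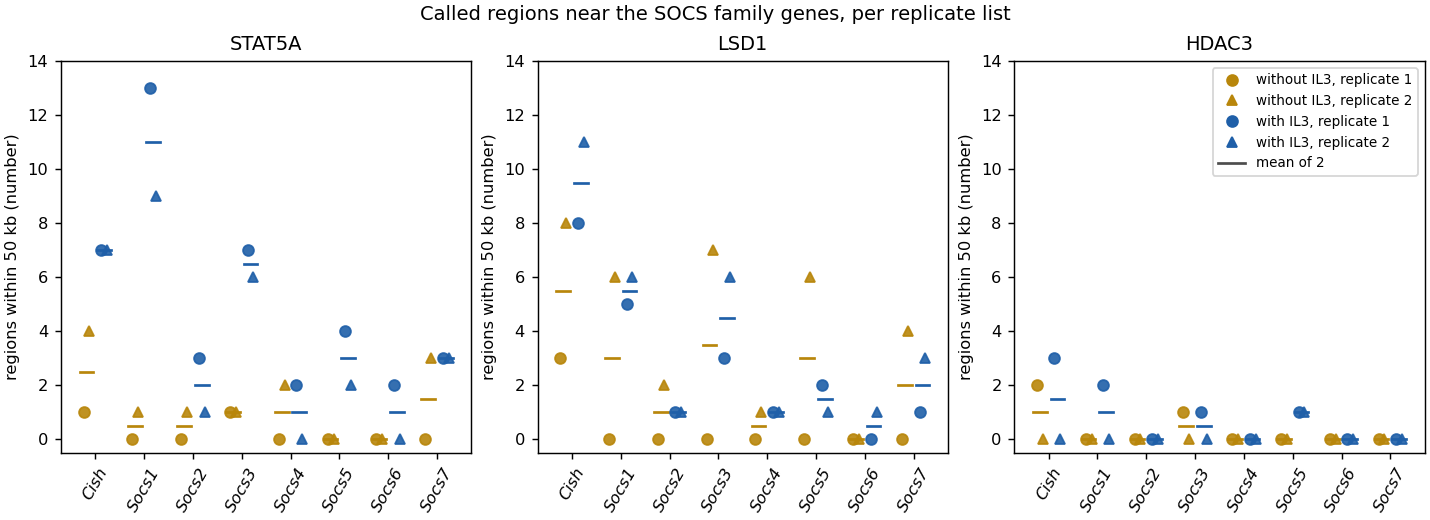
Number of called regions within 50 kb of each SOCS family gene, 1 panel per protein. Each point is 1 replicate list (circle replicate 1, triangle replicate 2, ochre without IL3, blue with IL3) and each bar the mean of 2; the STAT5A points with and without IL3 do not overlap for Cish, Socs1, Socs3 and Socs5.

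Cish encodes CIS, the family member that binds cytokine receptors at the sites where STAT5 docks. The gene (chr9:107296659-107302784, plus strand) had 1 and 4 STAT5A regions nearby without IL3, against 7 and 7 with IL3, a mean of 2.5 ± 2.12 (SD, n = 2) against 7 ± 0 (SD, n = 2). The regions without IL3 were at different places in the replicates: the single one of replicate 1 lay over the Cish start site, and the 4 of replicate 2 lay in or beside the neighbouring genes Mapkapk3, Hemk1 and 6430571L13Rik. With IL3 the region over the Cish start site was among the best ranked of the genome.

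In the pooled list with IL3 the region at chr9:107296520-107296694, centred 52 bp before the start site, ranked 3 of 15546 with a score of 588. In replicate 1 with IL3 it scored 842.8 and ranked 3 of 13574, and in replicate 2 with IL3 it scored 300.1 and ranked 13 of 6288. In replicate 1 without IL3 the start site region scored 43.8 and ranked 90 of 354. The pooled region covers bases 112 to 286 of the promoter window shown above, and so both matches to the STAT letters. Over all protein-coding genes, 6 had a pooled STAT5A region with IL3 that scored as high within 50 kb (0.0274%). Such counts include Cish itself and can include neighbours whose windows hold the same region.

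Besides the promoter, 5 STAT5A regions near Cish were gained, which means present with IL3 in both replicates and absent from both lists without it. The first is centred 866 bp before the start site and ranked 224 of 15546 in the pooled list. A group of 3 lies beyond the other end of the gene, with centres 11254, 12163 and 16361 bp after the start site and pooled ranks of 94, 37 and 28. The last lies inside Hemk1, with its centre 37912 bp after the Cish start site, and ranked 121. These 5 regions ranked between 22 and 325 in replicate 1 with IL3 and between 12 and 222 in replicate 2 with IL3. Only 25 genes had 5 or more gained STAT5A regions within 50 kb (0.114%).

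LSD1 was also listed around Cish, with 3 and 8 regions without IL3, against 8 and 11 with IL3 (means 5.5 ± 3.54 and 9.5 ± 2.12, SD, n = 2; two-sided exact permutation p 0.667). The groups share the value 8. Cish had more pooled LSD1 regions with IL3, 11, than any other member, and 159 genes had as many or more (0.726%). In every one of the 4 LSD1 replicate lists a region was centred between 9404 and 9551 bp after the start site, where no list had a STAT5A region. Gained LSD1 regions numbered 3, at chr9:107296747-107297021 just inside the gene, at chr9:107308891-107309112 and at chr9:107334504-107334741. The first overlapped the STAT5A start site region of replicate 1 without and with IL3, but not that of replicate 2 with IL3. Without IL3, LSD1 regions that did not overlap it were centred 515 bp before the start site in replicate 1 and 466 bp before it in the pooled list. The Cish start is thus not shown to be free of LSD1 without IL3. The second gained LSD1 region overlapped the gained STAT5A region at 12163 bp, and the third overlapped the one inside Hemk1. At the promoter itself the pooled STAT5A region overlapped no LSD1 region of any list, and the nearest pooled LSD1 region with IL3 was centred 339 bp away.

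HDAC3 regions near Cish numbered 2 and 0 without IL3, against 3 and 0 with IL3, so that all came from replicate 1. The 2 without IL3 lay inside Mapkapk3, and the 3 with IL3 lay beside Cish. With IL3 the HDAC3 region centred 16346 bp after the start site scored 57.5 and ranked 9 of 683 in replicate 1, and its counterpart in the pooled list ranked 8 of 1208. It overlapped STAT5A and LSD1 regions with IL3, as did the pooled HDAC3 region that ranked 26, at the STAT5A region at 11254 bp. Replicate 2 had no HDAC3 region near Cish in either condition, so the difference of place rests on 1 replicate.

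**Figure D2:**
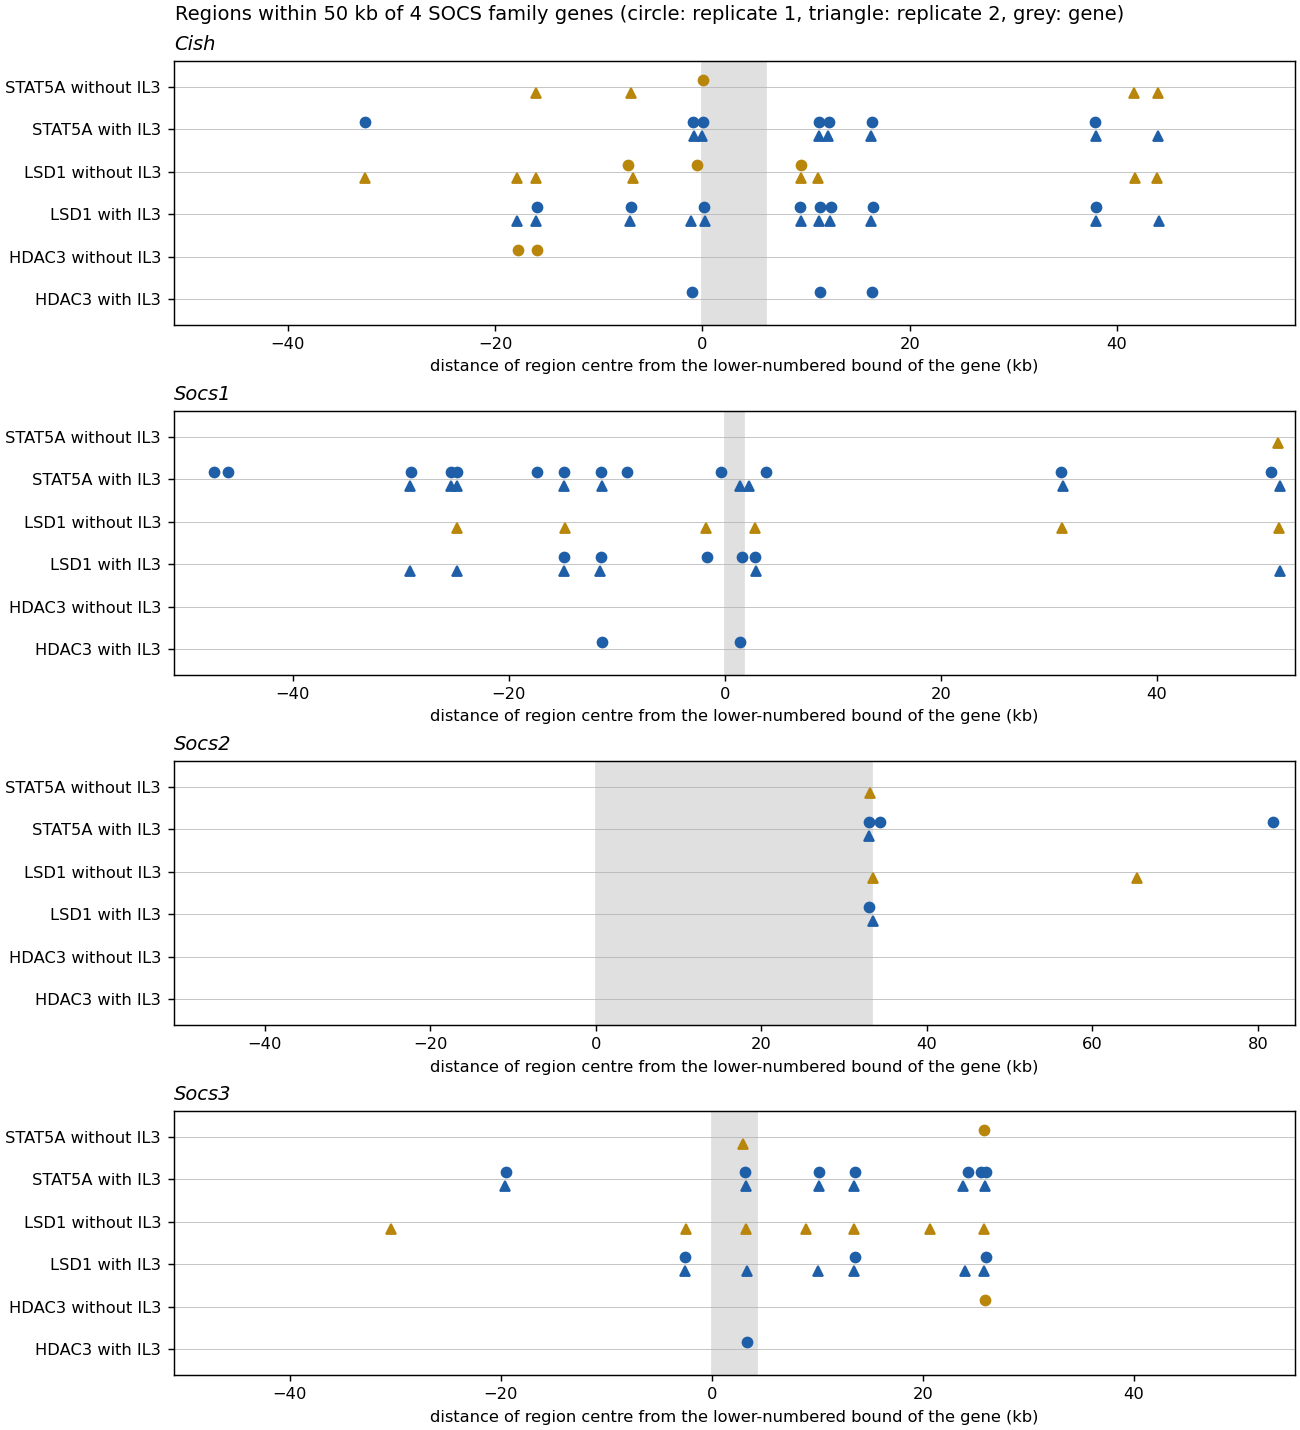
Positions of replicate regions around Cish, Socs1, Socs2 and Socs3, with the distance of each region's centre from the lower-numbered bound of the gene in kb on the x axis and 1 row per protein and condition. Circles are replicate 1, triangles replicate 2 and the grey band the gene; near Cish, circles and triangles stand together in the STAT5A row with IL3 and apart in the row without.

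Socs1 encodes a family member that inhibits JAK kinases directly as well as through the SOCS box. The gene (chr16:10783808-10785536, minus strand) had 0 and 1 STAT5A regions nearby without IL3, against 13 and 9 with IL3, a mean of 0.5 ± 0.707 against 11 ± 2.83 (SD, n = 2). The single region without IL3 lay 23 bp from Rmi2, at the edge of the window. The pooled list with IL3 held 13 regions near Socs1, the most of any member, and 35 of all genes had as many or more (0.160%). All 5 gained regions lay in the 38929 bp between Socs1 and Clec16a, which is downstream of Socs1 because the gene runs on the minus strand.

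The best ranked STAT5A region near Socs1 in the pooled list was at chr16:10772345-10772519, centred 13104 bp after the start site, with a score of 446.5 and rank 22 of 15546. It ranked 39 of 13574 in replicate 1 with IL3 and 23 of 6288 in replicate 2 with IL3. The next, centred 16622 bp after the start site, ranked 126 in the pooled list and 16 of 6288 in replicate 2. The other 3 gained regions were centred 26529, 27099 and 30783 bp after the start site and ranked 395, 1786 and 3200 of 15546. Close to the gene the replicates with IL3 did not coincide: replicate 1 had regions centred 2123 bp after and 2044 bp before the start site, and replicate 2 had regions centred 304 bp after and 536 bp before it. The Socs1 promoter window overlapped no STAT5A region in any list.

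LSD1 regions near Socs1 numbered 0 and 6 without IL3, against 5 and 6 with IL3 (two-sided exact permutation p 1), and the groups overlap. The gained LSD1 region near Socs1, at chr16:10772198-10772405, overlapped the best ranked STAT5A region. The STAT5A region 16622 bp after the start site overlapped LSD1 regions of both lists with IL3 and of replicate 2 without. HDAC3 was called near Socs1 in replicate 1 with IL3 only, with 2 regions, 1 at the best ranked STAT5A region (rank 384 of 683) and 1 inside the gene.

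Socs2 encodes a member known for restraining growth hormone signalling. The gene (chr10:95383903-95417321) had 0 and 1 STAT5A regions nearby without IL3, against 3 and 1 with IL3, so that the groups share the value 1 (means 0.5 ± 0.707 and 2 ± 1.41, SD, n = 2; two-sided exact permutation p 0.667). The numbers hide a region of high score. At chr10:95416834-95417008, inside the gene near its upper bound, the pooled list with IL3 held a STAT5A region of score 337.5 and rank 81 of 15546. It ranked 4 of 6288 in replicate 2 with IL3 and 414 of 13574 in replicate 1 with IL3. It was also called in replicate 2 without IL3, with a score of 27.2 and rank 928 of 4513, and was therefore not gained. The long noncoding RNA gene 5730420D15Rik begins 53 bp beyond that bound, and the strand of Socs2 is not given in the reference used here, so the region cannot be assigned to either gene. An LSD1 region overlapped it in replicate 1 with IL3 (rank 4432 of 6479), and no HDAC3 list held a region near Socs2.

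Socs3 encodes the member that inhibits signalling through receptors of the IL6 family and also blocks JAK kinases. The gene (chr11:117966079-117970336, minus strand) had 1 and 1 STAT5A regions nearby without IL3, against 7 and 6 with IL3, a mean of 1 ± 0 against 6.5 ± 0.707 (SD, n = 2). The regions without IL3 again lay at different places, inside Pgs1 in replicate 1 and inside Socs3, centred 329 bp after the start site used here, in replicate 2. The reference window starts Socs3 at chr11:117969366, inside the bounds of the gene. The best ranked region of the pooled list and of replicate 2 with IL3 lay at that start: chr11:117969152-117969326, centred 127 bp after it, ranked 155 of 15546 in the pooled list, 9 of 6288 in replicate 2 and 554 of 13574 in replicate 1, where a region inside Pgs1 (rank 479) and another outside the gene (rank 534) stood above it. It was gained, as were 3 others centred 22805 bp after the start site and 5896 and 9298 bp outside the upper bound of the gene, with pooled ranks of 648, 821 and 570. The gained call at the start depends on counting overlap from 1 bp. There the pooled STAT5A region without IL3 was centred 223 bp from the pooled region with IL3 and did not overlap it. The start is thus not shown to be free of STAT5A without IL3. Of all genes, 58 had 4 or more gained STAT5A regions (0.265%).

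LSD1 regions near Socs3 numbered 0 and 7 without IL3, against 3 and 6 with IL3 (two-sided exact permutation p 1), and none was gained or lost. At the Socs3 start the LSD1 region of replicate 2 without IL3 was centred 56 bp after the start site, and that of replicate 2 with IL3 79 bp before it. HDAC3 was called at the start site in replicate 1 with IL3 (rank 233 of 683), and without IL3 in replicate 1 inside Pgs1 alone. The Pgs1 site was called for STAT5A, HDAC3 and LSD1 without IL3 and for STAT5A and LSD1 with IL3.

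The remaining members, Socs4 to Socs7, encode proteins with long amino-terminal parts, some of which are known for dampening signalling by receptor tyrosine kinases. Socs5 (chr17:87107278-87137647) had 0 and 0 STAT5A regions without IL3, against 4 and 2 with IL3 (means 0 ± 0 and 3 ± 1.41, SD, n = 2). A single place was common to both replicates with IL3, chr17:87181735-87181909, 44175 bp from the gene, with no other protein-coding gene nearer. It ranked 67 of 15546 in the pooled list and 52 of 13574 in replicate 1, but 1509 of 6288 in replicate 2. LSD1 was called there in replicate 2 without IL3 and replicate 1 with IL3, and HDAC3 in replicate 1 with IL3. The other 4 pooled STAT5A regions near Socs5 scored between 15.0 and 47.0 and ranked between 3355 and 12819.

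Socs4 (chr14:47276920-47296102) had 0 and 2 STAT5A regions without IL3, against 2 and 0 with IL3, so that each condition had regions in 1 replicate only. Its start site carried a STAT5A region in replicate 2 without IL3 (rank 1513 of 4513) and, with its centre 888 bp after the start site, replicate 1 with IL3 had another (rank 3130 of 13574). Socs6 (chr18:88865169-88894364) had 0 and 0 STAT5A regions without IL3, against 2 and 0 with IL3. The higher scoring of the 2, in replicate 1, was 19384 bp from the gene in the pooled list and ranked 1643 of 15546 there. Socs7 (chr11:97362292-97398542) had 0 and 3 STAT5A regions without IL3, against 3 and 3 with IL3. Its single gained region lay 13800 bp away inside Arhgap23 (pooled rank 1976). A pooled STAT5A region without IL3 was centred 543 bp from that pooled region and did not overlap it. Replicate 2 without IL3 also had a STAT5A region beside it. For these 3 genes the groups overlap (two-sided exact permutation p 1 each).

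LSD1 near these 4 genes was as uneven. Socs5 had 0 and 6 LSD1 regions without IL3, against 2 and 1 with IL3, Socs7 0 and 4 against 1 and 3, Socs4 0 and 1 against 1 and 1, and Socs6 0 and 0 against 0 and 1. Across the family the groups overlapped for all 8 genes in LSD1, where 2.25% of all genes were higher in both replicates with IL3 and 0.0640% lower. The LSD1 list of replicate 1 without IL3 had regions near Cish alone, so no other member could be lower in LSD1. The lowest score of that list, 60.5, was given above. In HDAC3, Socs5 alone was higher in both replicates with IL3, with 1 and 1 regions against 0 and 0. This pattern was found in 0.0548% of all genes. No member could be lower, because the HDAC3 list of replicate 2 without IL3 held no region near any member. Of all genes, 1.62% were lower. The 2 HDAC3 regions of Socs5 were at different places, so no single HDAC3 site was shared. That of replicate 1 overlapped the distal STAT5A region, and that of replicate 2 lay inside the gene.

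**Figure D3:**
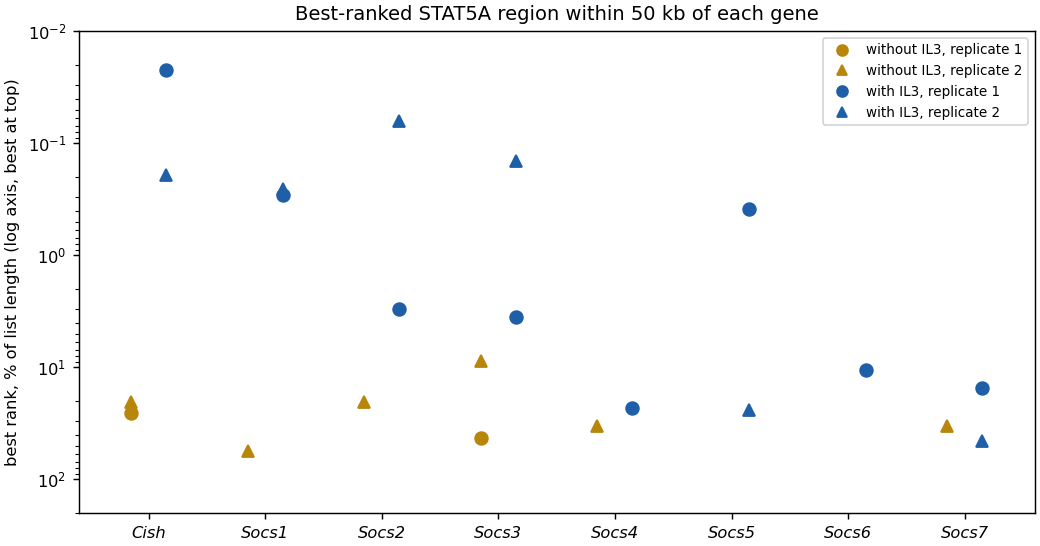
Best ranked STAT5A region within 50 kb of each gene, as percent of the list's length on a log axis with the best rank at the top, for each replicate list (circle replicate 1, triangle replicate 2, ochre without IL3, blue with IL3); a missing point means no region. With IL3 the Cish and Socs1 points lie in the upper 1% in both replicates, those of Socs2 and Socs3 in replicate 2 alone and that of Socs5 in replicate 1 alone; list lengths differ, so heights between conditions show no change.

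Taking regions in place of genes, 16 of the 58 merged STAT5A regions near the family were gained (27.6%), against 8.72% of all 20764 merged STAT5A regions. They fell to Cish (5), Socs1 (5), Socs3 (4), Socs5 (1) and Socs7 (1). At least 1 gained region was thus near 5 of the 8 members, against 15.6% of all genes, while Socs2, Socs4 and Socs6 had none. No STAT5A region near the family was lost, which would mean present in both lists without IL3 and absent from both with it, against 0.0482% of all. For LSD1, 4 of 50 merged regions were gained (8%), against 3.36% of all, and 0 were lost, against 0.319%. Gained LSD1 regions were near 2 of the 8 members, Cish and Socs1, against 9.09% of all genes. For HDAC3, 0 of 11 were gained, against 0.0389% of all. That 0 were lost was fixed beforehand, since replicate 2 without IL3 held no HDAC3 region near the family. Of all merged HDAC3 regions, 3.58% were lost. These calls lean on single libraries: leaving out replicate 2 with IL3 made 38 STAT5A regions gained, and leaving out replicate 1 without IL3 made 8 STAT5A and 11 LSD1 regions lost. Gained LSD1 regions numbered between 4 and 11 when 1 library was left out, and gained HDAC3 regions between 0 and 7.

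Because the STAT5A lists with IL3 are longer, the same count was taken with every STAT5A list reduced to its highest scores, to at most 352 regions, the number in the shortest list. Cish then had 1 and 0 regions without IL3, against 6 and 6 with IL3, and Socs1 had 0 and 0 against 2 and 3. Both stayed higher in both replicates, as did 0.946% of all genes. The groups overlapped for the 6 other members: Socs3 had 1 and 0 against 0 and 3, and Socs5 0 and 0 against 1 and 0. In LSD1 lists of at most 1005 regions, Socs1 had 0 and 1 regions against 3 and 3 with IL3 and was the only member higher in both replicates, against 1.10% of all genes. Cish had 3 and 1 LSD1 regions against 3 and 3 there. In HDAC3 lists of at most 234 regions, Socs5 alone was higher, with 0 and 0 against 1 and 1, as were 0.0594% of all genes.

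The high scoring STAT5A regions with IL3 near the family lay near Cish, Socs1, Socs2, Socs3 and Socs5. Of the 40 in the pooled list, 10 were in the upper 1% of scores (25%), against 1.04% of all STAT5A regions, and 19 were in the upper 10% (47.5%), against 10.2%. Cish alone had 5 of the 10 and 6 of the 19, and the best pooled ranks near Socs4, Socs6 and Socs7 were 3703, 1643 and 1976, outside the upper 10%. Of the 40, 4 lay inside a member, 13 outside but within 10 kb, and 23 further away, and 9 of the 40 lay inside another protein-coding gene. In both replicates with IL3 19 of the 40 were called, in replicate 1 alone 15, in replicate 2 alone 5 and in neither 1. Only 2 of the 40 overlapped a pooled STAT5A region without IL3 (5%), the Cish start site and the Socs2 region, against 10.9% of all.

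**Figure D4:**
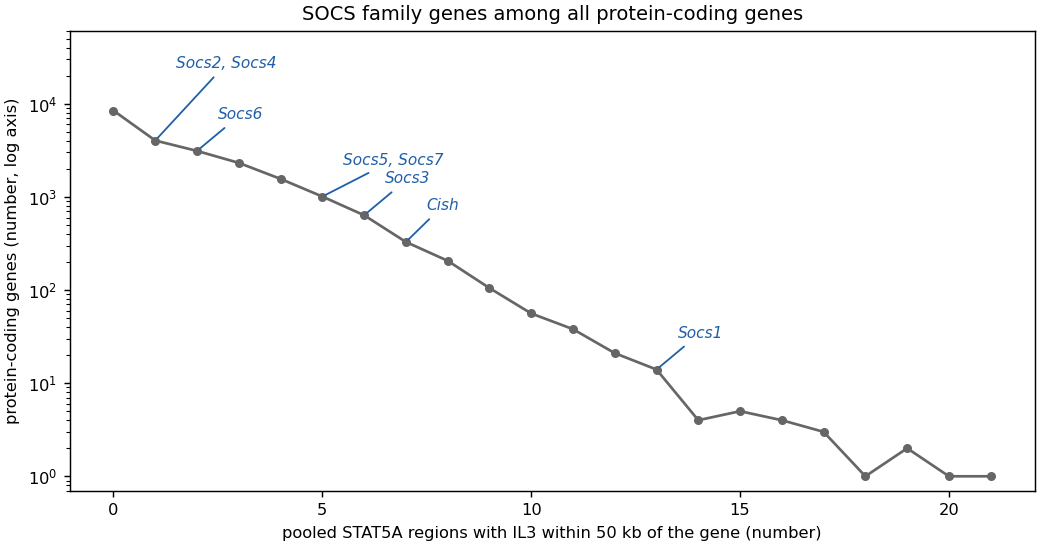
Number of protein-coding genes (y axis, log scale) by how many pooled STAT5A regions with IL3 lie within 50 kb (x axis), with the SOCS family genes marked on the line. Socs1, with 13 regions, lies far to the right, Cish and Socs3 have 7 and 6, and Socs2 and Socs4 have 1, the median of all genes.

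LSD1 regions with IL3 overlapped 21 of the 40 pooled STAT5A regions near the family (52.5%), against 33.4% of all STAT5A regions, with 1 bp as the least overlap. LSD1 regions without IL3 overlapped 16 of the 40 (40%), against 29.0%. The STAT5A regions with LSD1 were in part places where LSD1 was also called without IL3: 13 of the 40 overlapped LSD1 in both conditions, 8 with IL3 only, 3 without IL3 only and 16 in neither. Overlap was more frequent at high scores, near the family and over all STAT5A regions. Of the 19 family regions in the upper 10% by score, 13 overlapped LSD1 with IL3, against 51.9% of all STAT5A regions in that part of the list, and of the other 21, 8 did, against 31.3%.

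HDAC3 regions with IL3 overlapped 5 of the 40 (12.5%), against 4.56% of all, and these 5 were near Cish (2), Socs1, Socs3 and Socs5. All 5 were among the 16 pooled regions that matched gained STAT5A regions, of which 12 also overlapped LSD1 with IL3. The shares over all gained STAT5A regions were not taken, so these counts do not set the family apart. In the HDAC3 replicate lists with IL3, 4 of the 40 overlapped replicate 1 and 0 overlapped replicate 2. HDAC3 without IL3 overlapped 2 of the 40 (5%), against 8.70% of all. Read from the HDAC3 side, 5 of the 6 pooled HDAC3 regions with IL3 near the family overlapped STAT5A with IL3 (83.3%, against 58.7% of all HDAC3 regions) and 0 overlapped an HDAC3 region without IL3, against 41.1%.

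**Figure D5:**
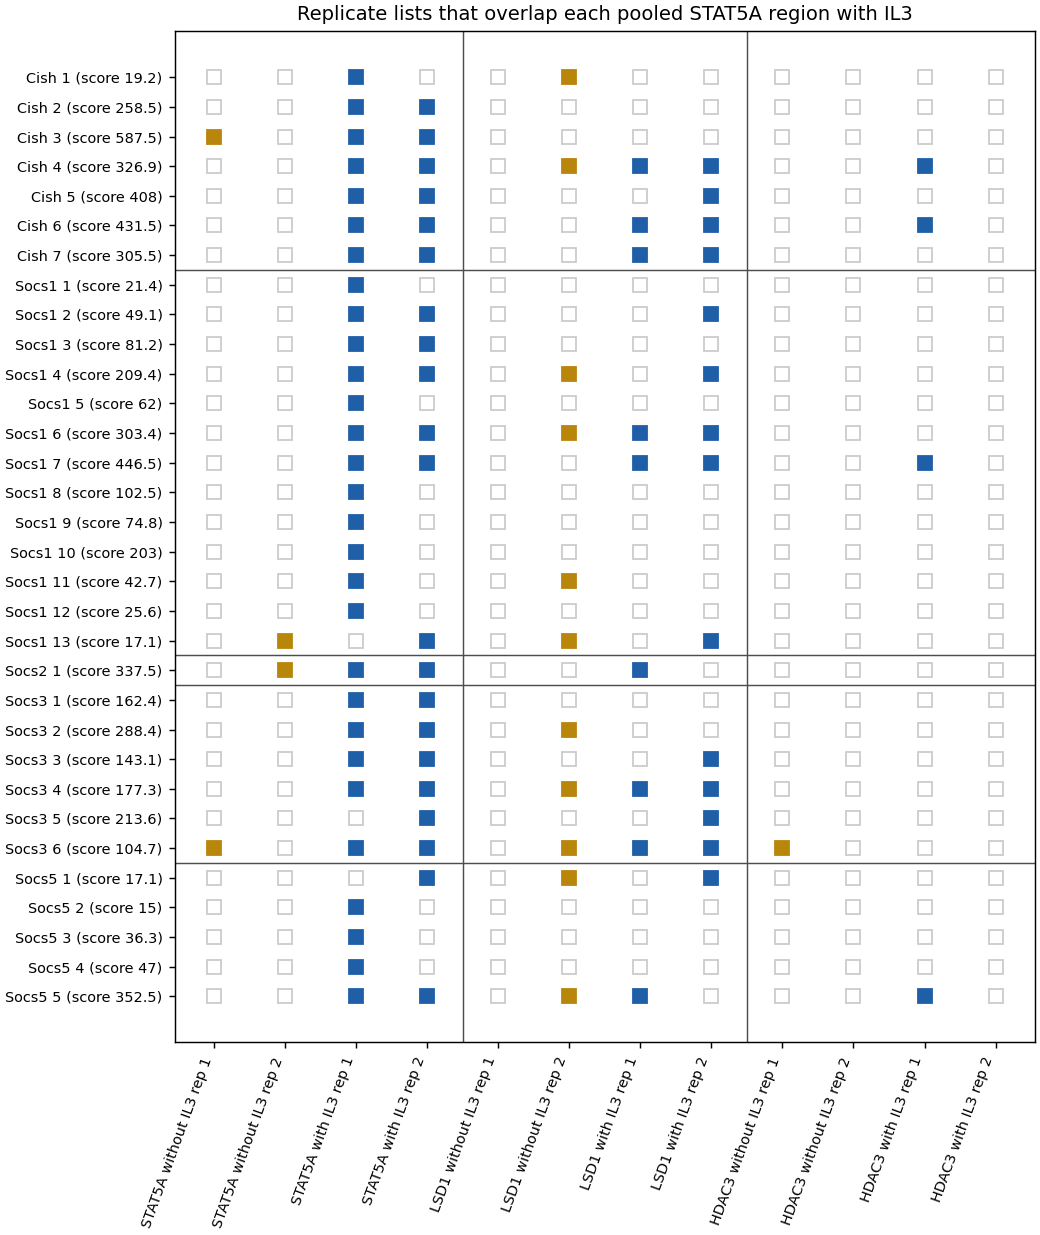
Pooled STAT5A regions with IL3 near Cish, Socs1, Socs2, Socs3 and Socs5 (rows, numbered from the lower coordinate, with the authors' score), and whether each replicate list (columns) holds a region that overlaps it (filled, ochre without IL3 and blue with IL3) or not (open). Over all 40 such regions near the 8 genes, 9 overlap LSD1 replicate 1 with IL3 and 17 replicate 2 with IL3, and no square is filled for HDAC3 replicate 2 in either condition.

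The other parts of the pathway were read in the same way, with median numbers of pooled STAT5A regions per gene. The family had a median of 5 regions with IL3 and 1 without, and all protein-coding genes a median of 1 and 0. Of 14 genes for the IL3 receptor, JAK kinases and STATs, 8 were higher in both replicates with IL3, where 18% of all protein-coding genes were, and the medians were 2.5 and 1. The kinase gene Jak2 had 1 and 3 regions without IL3, against 11 and 4 with IL3, and Stat2, Stat4, Stat6 and the receptor gene Csf2rb were higher too. Of 13 genes for other inhibitors of the pathway, 4 were higher, namely Pias3, Cbl, Ptprc and Ptpn1, beside the same 18% of all genes, with medians of 3 and 1. Of 6 genes for the proteins that the SOCS box recruits, 0 were higher (medians 3 and 1), and of 26 other genes with a SOCS box, 4 were higher, Spsb3, Asb6, Wsb1 and Asb13 (medians 2 and 1), a share near the 18% of all genes. The highest pooled STAT5A score with IL3 in these 4 lists was 230.7, at Jak2, below the highest scores near Cish, Socs1, Socs2, Socs3 and Socs5, which lay between 288.4 and 588. The highest scores near Socs6, Socs7 and Socs4, at 87.6, 74.8 and 42.7, were below those near Jak2, Stat2 (207.2), Stat6 (179.5) and Csf2rb (153.8).

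The genes whose numbers of regions over the 12 replicate lists came closest to those of Cish, by the Euclidean distance of log2(number + 1), were Rab31, Ccdc12, Ccdc9, Nt5c2 and Gpr108, at distances of 1.15, 1.71, 1.73, 1.75 and 1.80. Rab31 had 1 and 5 STAT5A regions without IL3, against 12 and 6 with IL3, and 2 and 9 LSD1 regions without IL3, against 10 and 14 with IL3. A longer gene has a wider window, and Rab31 spans 121027 bp against 6126 bp for Cish.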

How the data were processed

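ChIP-seq regions of STAT5A, LSD1 and HDAC3 in Ba/F3 cells were used as the authors deposited them. Per the submitters' processing notes, Trimmomatic 0.30, Bowtie2 2.1.0, Picard 1.92, HOMER 4.8 and the mm10 assembly were used; the roles of these tools, the caller's settings, its control and its threshold are recorded in neither labels nor files. The deposited score in the fifth column was used to rank regions within 1 list. Regions have 1 width per list, between 123 and 235 bp. The input library was not used here.

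Counts were made in Python 3.11.15 with pandas 2.3.3, numpy 2.4.6 and scipy 1.17.1, and drawn with matplotlib 3.10.9. A region is near a gene when any part of it is within 50 kb of the gene's bounds, and overlaps another by 1 bp or more. The 4 replicate lists of a protein were merged for gained and lost calls. The 88 regions off assembled chromosomes count in list lengths only. The test for numbers per gene was an exact permutation test, two-sided, over 2 against 2 libraries (smallest p 0.333). The labels call the replicates biological and do not say whether they were separate cultures on separate days. Gained and lost calls, counts per gene and overlaps of 1 bp were tested on simulated lists with planted regions. Ranks, lists of equal length, motif matches and the other overlap rules were not tested in this way. Gene bounds come from RefSeq (GRCm38.p6), which gave no strand for Socs2, Socs5, Socs6 and Socs7.

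The members, the pathway lists and the tests were chosen with earlier results of these data known. Genes named are the 8 members, up to 6 genes per pathway list with non-overlapping STAT5A groups by highest score, the 5 genes most like Cish, and the gene that a region lies in or next to. 1 item that this rule names is not reported here. Alternatives were windows of 10 and 100 kb, the upper 50% of scores, lists of equal length, pooled lists, other overlap rules, a replicate block, each replicate left out, and regions of all 6 pooled lists left out.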

Additional observations from a re-analysis of the deposited data

How the results depend on the processing

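STAT5A regions near the 8 genes differed by 27.5 per library (with minus without IL3), by 11 in 10 kb windows, 39 in 100 kb windows and 10 in lists of equal length, and by 21 to 34 when 1 replicate was left out. The LSD1 difference of 7 ranged from -8.5 (without replicate 1 without IL3, the short list) to 22.5, and the HDAC3 difference of 2.5 from -0.5 (without replicate 1 with IL3) to 5.5. Per gene, LSD1 turned to -0.5 for Socs1 and -2.5 for Socs3 without replicate 1 without IL3, to -0.5 for Socs3 without replicate 2 with IL3, and to 1.5 for Socs5 without replicate 2 without IL3 (ranges -0.5 to 5.5 for Socs1, -2.5 to 4.5 for Socs3 and -4.5 to 1.5 for Socs5). HDAC3 at Cish turned to -0.5 without replicate 2 without IL3, to -1 without replicate 1 with IL3 and to -1 in pooled lists. These are 7 of 264 alternatives over the 24 differences per gene and protein, a share that understates how far the differences moved. The block and the removal of regions of all 6 pooled lists could not turn a sign. A difference of 0 was never counted as turned. With 1 replicate left out, such differences ranged from -2 to 2 for LSD1 at Socs7 and from -1 to 1 for STAT5A at Socs4. The 16 gained STAT5A regions became 6 in 10 kb windows and 17 to 38 with 1 replicate left out (38 without replicate 2 with IL3), and the lost ones went from 0 to between 0 and 8 (8 without replicate 1 without IL3). Gained LSD1 regions were 4, 2 in 10 kb windows and 4 to 11 with 1 left out, lost ones 0 to 11, gained HDAC3 regions 0 to 7 and lost ones 0 to 3. Leaving a replicate out loosens the rule for its group. LSD1 overlapped 21 of 40 STAT5A regions, 8 of the 17 in 10 kb windows and 9 of 40 with the replicate 1 list alone; HDAC3 overlapped 5 of 40, 2 of the 17 and, with the replicate 2 list alone, 0 of 40. Other causes were not tested. The labels do not say that replicate numbers pair libraries. For each gene, replicate 1 minus replicate 2 in log2(number + 1) was taken with and without IL3. Over 21887 genes these 2 values correlated at 0.0507 (STAT5A), 0.376 (LSD1) and 0.264 (HDAC3), with 2 pairs of libraries per protein. Taking the replicate number as a block cannot change the differences (27.5, 7 and 2.5). The smallest p of the exact permutation test within blocks was 0.5, the lowest that 2 pairs allow. With or without the block, 0 p-values were under 0.05.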
